A study of Mus musculus with 3 samples.

Results

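The interferon response and antigen presentation genes of ALSCs were described as 39 genes, chosen by symbol from a list of receptors and signalling factors, sensors of viral nucleic acid, antiviral effectors, and genes of class I antigen presentation. All 39 symbols were found among the 55421 named genes of the table. The table gives *Mx1* and *Mx2* as polymorphic pseudogenes and the other 37 as protein-coding. ALSCs are mouse stem cells derived at embryonic day 6.5 from epiblasts of ICR females mated with GOF/GFP males, which carry a green fluorescent reporter driven by an *Oct4* regulatory fragment. They were grown in Activin A and LIF on fibronectin, in a defined medium for which no feeder cells are described. The polyA RNA of 3 ALSC libraries (replicates 1, 2, and 3) was sequenced, and neither the labels nor the methods name an interferon, a virus, or another immune stimulus. All 3 libraries therefore belong to 1 condition, and no other cell type was compared. The labels do not say whether they came from separate lines or from cultures of 1 line, so the p-values given here measure only the spread between these samples, which may be technical.

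Interferons are secreted by cells that sense viral nucleic acid, and they act through the type I receptor (*Ifnar1* and *Ifnar2*) or the type II receptor (*Ifngr1* and *Ifngr2*). Receptor-bound kinases such as TYK2 then activate STAT proteins, and a complex that contains STAT2 and IRF9 switches on interferon-stimulated genes through a promoter motif, the interferon-stimulated response element (ISRE). Some of these genes, such as *Mx1* and *Rsad2*, encode proteins that act against viruses, while others load peptides on class I molecules for display to T cells. Pluripotent stem cells are known for a weak interferon response and for low class I levels at their surface.

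The libraries held 18088505, 18724038, and 18037342 counts on named genes. FPKM was computed from the counts, the gene length of the table, and these totals. It gives counts per length, so comparisons between genes depend on the length used. Replicate 1 stood apart, since the biological coefficient of variation was 0.153 over the 3 libraries and 0.053 without it. It also held fewer counts of long genes, with a median log2 ratio to the other libraries of 0.39 in the shortest of 20 length groups and -0.53 in the longest. All 7 markers of pluripotent cells reached 1 FPKM in every library, with *Pou5f1* at 648 ± 25.3 FPKM (SD, n = 3). The summed level of 7 leukocyte and macrophage markers was 1.81 to 1.99 FPKM per library, nearly all of it *Cd68* and *Cd14*, at 0.957 and 0.843 FPKM. *Itgam* had 7, 0, and 3 counts in replicates 1, 2, and 3, and *Ptprc*, *Csf1r*, *Adgre1*, and *Lyz2* had 3 or fewer in each. That of 4 endothelial markers was 0.606 to 1.17 FPKM, and that of 6 fibroblast markers 4.18 to 6.5 FPKM, nearly all of it *Col1a1*, with *Col3a1*, *Dcn*, *Lum*, and *Postn* at 3 counts or fewer.

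The promoters of 6 members are shown because they carry the same kind of motif in front of genes whose levels in ALSCs lay far apart. Each is the 160 bases before the RefSeq start site on GRCm38.p6, written 5′ to 3′ along the gene. Capitals mark matches to the ISRE letters GAAANNGAAA, or TTTCNNTTTC on the other strand, and neighbouring matches can overlap. The effectors *Isg15*, *Ifit1*, and *Rsad2* are followed by the effectors *Bst2* and *Ifitm2* and by *B2m*, the light chain of class I molecules.
Isg15 (chr4:156200819-156200978, minus strand): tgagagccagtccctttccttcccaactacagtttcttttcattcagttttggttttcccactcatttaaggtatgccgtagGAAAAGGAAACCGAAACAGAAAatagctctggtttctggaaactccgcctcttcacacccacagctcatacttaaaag
Ifit1 (chr19:34640729-34640888, plus strand): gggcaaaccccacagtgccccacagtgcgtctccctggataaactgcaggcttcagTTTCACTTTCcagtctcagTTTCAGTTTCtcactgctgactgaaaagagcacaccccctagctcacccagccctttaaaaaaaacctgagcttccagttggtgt
Rsad2 (chr12:26456453-26456612, minus strand): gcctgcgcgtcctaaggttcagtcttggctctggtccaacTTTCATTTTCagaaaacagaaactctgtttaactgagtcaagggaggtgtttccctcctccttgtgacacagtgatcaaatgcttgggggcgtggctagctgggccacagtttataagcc
Bst2 (chr8:71537473-71537632, minus strand): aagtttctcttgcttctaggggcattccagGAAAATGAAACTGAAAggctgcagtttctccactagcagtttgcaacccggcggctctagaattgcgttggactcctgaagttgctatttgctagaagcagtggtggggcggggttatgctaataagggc
Ifitm2 (chr7:140955962-140956121, minus strand): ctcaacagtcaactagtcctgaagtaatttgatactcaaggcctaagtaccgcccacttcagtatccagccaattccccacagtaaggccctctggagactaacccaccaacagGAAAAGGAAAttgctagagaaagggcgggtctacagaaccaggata
B2m (chr2:122147527-122147686, plus strand): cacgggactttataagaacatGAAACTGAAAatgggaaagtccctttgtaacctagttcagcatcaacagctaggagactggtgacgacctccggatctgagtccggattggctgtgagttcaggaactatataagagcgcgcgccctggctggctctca

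Of the 39 members, 25 reached 1 FPKM in each of the 3 libraries, which is 64.1%, beside 45.7% of the 21926 protein-coding genes and 20.1% of all named genes. At the other end, 4 members had 3 counts or fewer in every library, which is the limit set by a count of 0 and was met by 34.6% of protein-coding genes. The remaining 10 lay in between. The median level of the members was 2.96 FPKM, against 0.682 FPKM for protein-coding genes and 8.21 FPKM for the 11125 named genes that reached 1 FPKM throughout. The levels were uneven, since the 5 members with the most counts took 50.8% to 56.6% of all member counts in a library. In the order of mean levels, 28 of 38 neighbouring pairs overlapped in the ranges of their 3 libraries. No neighbours overlapped from *Bst2*, the second in that order, down to *Irf3*, the seventh. All of these are statements on RNA averaged over many cells, in which fewer expressing cells and less RNA per cell cannot be told apart.

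**Figure D1:**
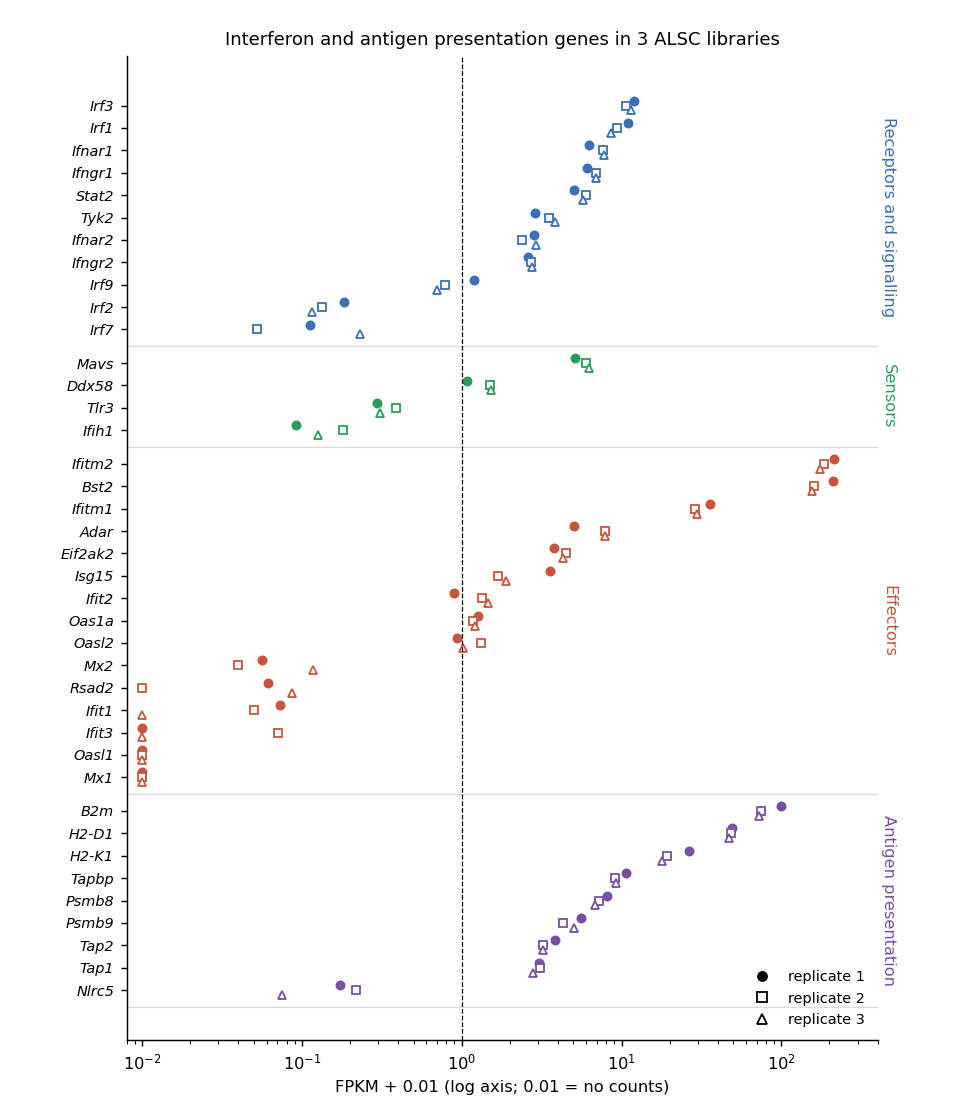
FPKM of each of the 39 members in the 3 ALSC libraries on a log axis, with 0.01 FPKM added so that 0 counts can be drawn. Points are libraries, colours are the 4 steps, and the dashed line marks 1 FPKM. The points reach from *Ifitm2* and *Bst2*, above 150 FPKM in each library, to *Oasl1* and *Mx1*, which had no counts.

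Transcripts of interferons themselves did not exceed 3 counts in a library. Of 11 ligand genes, 10, *Ifnb1* and *Ifng* among them, had no count in any library, and *Ifnk* had 2, 0, and 2 counts in replicates 1, 2, and 3. Receptor transcripts were present at moderate levels. *Ifnar1*, a signalling chain of the type I receptor (ENSMUSG00000022967; chromosome 16, 91485238 to 91507441) was measured at 6.26, 7.70, and 7.77 FPKM in replicates 1, 2, and 3, a mean of 7.24 ± 0.848 (SD, n = 3). Its partner *Ifnar2* (chromosome 16, 91372783 to 91405589) was at 2.82, 2.36, and 2.91 FPKM, below *Ifnar1* in every library, by a mean factor of 2.72 ± 0.524 (SD, n = 3). The type II receptor showed the same order of its chains. The ligand-binding chain *Ifngr1* was at 6.08, 6.87, and 6.89 FPKM and *Ifngr2*, the chain that joins it for signalling, at 2.60, 2.71, and 2.74 FPKM. *Ifngr1* thus lay 2.46 ± 0.108 times above *Ifngr2* (SD, n = 3), and the ranges of the chains of either receptor did not overlap. *Ifnar2*, *Ifnar1*, and *Ifngr2* lie within 193 kb of chromosome 16.

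Of the factors behind the receptors, the kinase *Tyk2* was at 2.87, 3.50, and 3.84 FPKM and *Stat2* at 5.07, 5.98, and 5.74 FPKM in replicates 1, 2, and 3. *Irf9*, the DNA-binding partner of STAT2, was lower, at 1.19, 0.773, and 0.690 FPKM from 116, 78, and 67 counts. It crossed 1 FPKM in replicate 1 alone, and its ratio below *Stat2* varied from 4.25 to 8.33 between libraries. With the length of the longest coding transcript in place of the gene length, *Irf9* was at 1.61 ± 0.488 FPKM (SD, n = 3) and passed 1 FPKM in every library. Part of the *Irf9* locus, 123 exonic bases, is shared with *Rnf31* on the same strand, which had 1915 counts in all against 261 for *Irf9*.

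The interferon regulatory factors fell into a high and a low group. *Irf3*, which is present before infection and is activated by phosphorylation, reached 11.97, 10.7, and 11.5 FPKM and had the highest mean of the 11 members of this step. *Irf1*, a factor inducible by interferon gamma, was at 11.0, 9.31, and 8.603 FPKM. *Irf7*, which amplifies the type I response, had 7, 3, and 15 counts, or 0.122 ± 0.0904 FPKM (SD, n = 3), and *Irf2*, an antagonist of *Irf1*, was at 0.133 ± 0.0347 FPKM (SD, n = 3). *Irf3* was above *Irf7* by 52.0 to 253 times, a wide range at so few counts of *Irf7*. Short exonic stretches overlap genes on the opposite strand, 88 bases of *Irf3* with *Bcl2l12* and 45 bases of *Irf7* with *Phrf1*, and *Phrf1* had 5982 counts in all. In a wider list of 16 signalling genes and inhibitors, 9 reached 1 FPKM in each library. *Ptpn11* and *Ptpn2*, which encode phosphatases that restrain JAK and STAT signalling among other roles, were at 25.6 and 20.5 FPKM, and *Jak1* at 5.30 FPKM. *Usp18*, an interferon-induced inhibitor of the type I receptor, had 3 counts or fewer.

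Among the sensors, the adaptor was more abundant than the receptors that signal through it. *Mavs*, the mitochondrial adaptor of the RNA helicases, was at 5.11, 5.94, and 6.28 FPKM. The helicase *Ddx58*, also known as RIG-I, was at 1.07, 1.5, and 1.51 FPKM from 137, 198, and 192 counts. The second helicase, *Ifih1* (MDA5), was far lower, with 12, 26, and 17 counts and 0.122 ± 0.0448 FPKM (SD, n = 3). *Tlr3*, the endosomal receptor for double-stranded RNA, had 27, 37, and 28 counts, a level of 0.321 ± 0.0506 FPKM (SD, n = 3). All libraries of *Ddx58* were above all of *Tlr3*, and those above all of *Ifih1*. In a wider list of 18 sensing genes, 7 reached 1 FPKM in each library and 6 had 3 counts or fewer. The kinase *Tbk1*, which phosphorylates IRF3, was at 11.8 ± 0.583 FPKM (SD, n = 3). *Cgas* and *Tmem173* (STING), the sensor and the adaptor for cytosolic DNA, were at 0.211 and 0.160 FPKM.

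The effectors were the most divided of the 4 steps, with 7 of 15 reaching 1 FPKM in each library and all 4 members that had 3 counts or fewer in each. *Ifitm2* (ENSMUSG00000060591; chromosome 7, 140954837 to 140955987), a membrane protein that blocks virus entry, was measured at 213, 184, and 175 FPKM in replicates 1, 2, and 3. *Bst2* (ENSMUSG00000046718; chromosome 8, 71534255 to 71537456), which tethers budding virus to the cell, was at 209.7, 161, and 155 FPKM. These levels were higher than those of 97.3% and 97.1% of the named genes that reached 1 FPKM throughout, and the ranges of *Ifitm2* and *Bst2* overlapped. *Ifitm1*, a membrane protein of the same family that lies beside *Ifitm2* on chromosome 7, was at 35.6, 28.8, and 29.6 FPKM, and *Ifitm2* was 6.09 ± 0.271 times above it (SD, n = 3). Another gene of the family, *Ifitm3*, which is not among the 39, was at 91.6 ± 19.9 FPKM (SD, n = 3). Reads of *Ifitm2* can match copies, because 51.5% of the 50-base words of its transcript occurred in no other annotated gene. For *Bst2* this share was 100%.

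RNA-editing and RNA-sensing effectors came next. *Adar*, which edits double-stranded RNA, was at 5.04, 7.84, and 7.85 FPKM, and 1365 of its exonic bases overlap *Chrnb2* on the opposite strand, which had 194 counts in all. *Eif2ak2* (PKR), a kinase that halts translation, was at 3.80, 4.47, and 4.28 FPKM. *Isg15*, a ubiquitin-like protein, had 45, 22, and 24 counts, or 3.54, 1.67, and 1.89 FPKM, so that replicate 1 was above the others. *Ifit2*, of a family that acts on viral RNA, was at 0.887, 1.33, and 1.45 FPKM and the synthetase-like *Oasl2* at 0.919, 1.31, and 1.01 FPKM, each under 1 FPKM in replicate 1 alone. With the longest coding transcript *Oasl2* was at 2.20 ± 0.414 FPKM (SD, n = 3) and passed 1 FPKM in every library. *Oas1a*, which makes the signal that activates RNase L, had 43, 41, and 41 counts and 1.21 ± 0.0498 FPKM (SD, n = 3). In its transcript, 42.4% of the 50-base words were unique, so this level is uncertain.

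Classical interferon-stimulated genes made up the low end. *Mx1* and *Oasl1* had no count in any library, which allows up to 0.0439 and 0.0638 FPKM in a library. *Ifit3* had 0, 2, and 0 counts and *Ifit1* had 3, 2, and 0, both at or under the limit. *Rsad2* (viperin), which makes a chain-terminating nucleotide, had 4, 0, and 6 counts, and *Mx2* had 3, 2, and 7, so these were at most just above it. *Ifit2*, *Ifit3*, and *Ifit1* lie within 99.3 kb of chromosome 19, and *Ifit2* was at 63 to 103 counts per library beside neighbours with 0 to 3. In *Ifit3*, 48.8% of the 50-base words were unique, and its near-copy *Ifit3b* had no counts. *Oasl1* and *Oasl2*, within 41.0 kb of chromosome 5, differed in the same way, with 0 counts against 106 to 156.

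A wider list held 35 other effectors. Of these, 9 reached 1 FPKM in each library, led by *Ifitm3* and *Ifi27l2a*, the latter at 10.02 ± 3.32 FPKM (SD, n = 3). At the low end, 10 had 3 counts or fewer in every library, *Ifi44* and *Iigp1* among them with none. The median of the list was 0.471 FPKM, against 1.21 FPKM for the 15 effectors described above.

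Antigen presentation was the step with the highest median level, 7.39 FPKM, and 8 of its 9 members reached 1 FPKM in each library. *B2m* (ENSMUSG00000060802; chromosome 2, 122147686 to 122153083), the light chain shared by all class I molecules, was measured at 100.2, 75.1, and 72.1 FPKM in replicates 1, 2, and 3. The heavy chain *H2-D1* (chromosome 17, 35262730 to 35267499) was at 49.3, 48.5, and 46.9 FPKM. The second heavy chain, *H2-K1* (chromosome 17, 33996017 to 34000347), was at 26.6, 19.1, and 17.9 FPKM. *B2m* exceeded *H2-K1* by 3.91 ± 0.127 times and *H2-D1* by 1.71 ± 0.283 times (SD, n = 3), and the ranges of these genes did not overlap. With the longest coding transcript *B2m* was 2.15 ± 0.0699 times above *H2-K1* (SD, n = 3). The order of the heavy chains is less firm, because 85.7% of the 50-base words of *H2-D1* and 91.2% of those of *H2-K1* were unique. Class I genes are also highly polymorphic, and how reads of alleles unlike the reference were mapped was not tested.

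Members that supply peptides had lower levels than these 3 genes. The transporter subunits *Tap1* and *Tap2* were at 3.03, 3.06, and 2.77 FPKM and at 3.85, 3.23, and 3.23 FPKM, with *Tap1* at 0.865 ± 0.0797 of *Tap2* (SD, n = 3). This order depends on the length used, since with the longest coding transcript *Tap1* was at 1.46 ± 0.135 times *Tap2* (SD, n = 3). *Tapbp* (tapasin), which joins the transporter to empty class I molecules, was at 10.7, 9.10, and 9.17 FPKM. Of its 50-base words 79.0% were unique, and of those of *Tap2* 87.4%. In *Tapbp*, 904 exonic bases overlap *Gm19412* on the opposite strand, which had 1 count in all. *Nlrc5*, the transactivator of class I genes, had 25, 33, and 10 counts and 0.145 ± 0.0727 FPKM (SD, n = 3), far below the genes it is known to act on. Of 15 other genes of the class I pathway, 14 reached 1 FPKM in each library, with a median of 8.33 FPKM. The chaperones *Pdia3*, *Calr*, and *Canx*, which serve many proteins, were at 121, 95.5, and 93.3 FPKM, and the proteasome activator subunits *Psme2* and *Psme1* at 91.01 and 58.6 FPKM, above both heavy chains. *H2-T23* was under 1 FPKM in each library, at 0.793 ± 0.175 FPKM (SD, n = 3).

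The immunoproteasome is a form of the proteasome in which interferon-inducible catalytic subunits replace the constitutive ones, PSMB8 for PSMB5, PSMB9 for PSMB6, and PSMB10 for PSMB7. *Psmb8* was at 8.08, 7.27, and 6.82 FPKM while *Psmb5* was at 189, 141, and 162 FPKM. *Psmb9* was at 5.54, 4.26, and 4.999 FPKM while *Psmb6* was at 284, 226, and 227 FPKM. The log2 ratio of the immunoproteasome subunit to its counterpart was -4.46 ± 0.16 for *Psmb8* and -5.64 ± 0.12 for *Psmb9* (SD, n = 3), levels 22.1 and 49.8 times below. *Psmb10*, which is not among the 39, did not share this gap. Its level of 53.4 ± 10.6 FPKM was nearer to the 91.1 ± 9.40 FPKM of *Psmb7* (SD, n = 3 for each), a log2 ratio of -0.78 ± 0.13 (SD, n = 3). In each pair, all 3 libraries had the constitutive gene higher, and with 3 libraries the smallest two-sided p of an exact sign test is 0.25. The size of the gap depends on the length used, since with the longest coding transcript the constitutive subunits were 10.6, 43.2, and 3.90 times above *Psmb8*, *Psmb9*, and *Psmb10*. *Psmb9*, *Tap1*, *Psmb8*, and *Tap2* lie side by side within 34.3 kb of chromosome 17, at 34181987 to 34216321, and 212 exonic bases of *Psmb9* and *Tap1* overlap on opposite strands. Their means were 2.96 to 7.39 FPKM.

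**Figure D2:**
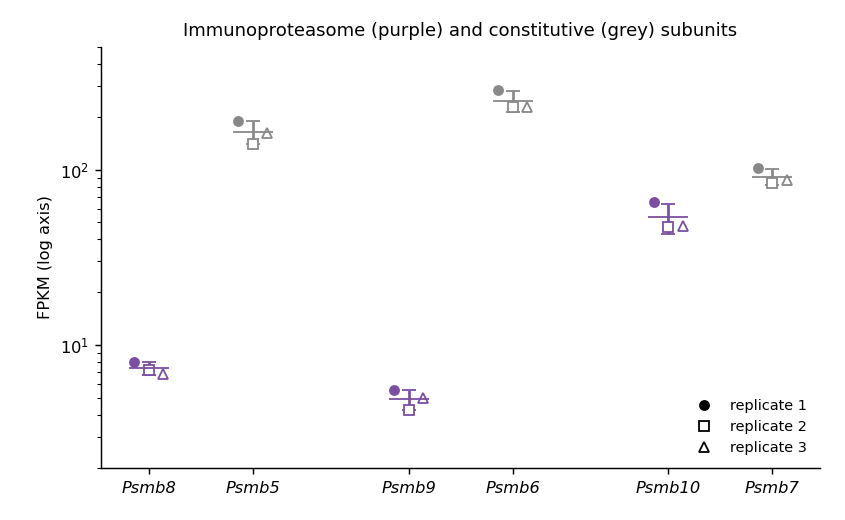
FPKM (log axis) of the interferon-inducible proteasome subunits in purple, each beside its constitutive counterpart in grey. Symbols are the 3 libraries, horizontal lines the means, and bars the SD. *Psmb8* and *Psmb9* lie under 10 FPKM and *Psmb10* above 40 FPKM, while the constitutive subunits lie above 80 FPKM in every library.

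A chi-square test, adjusted over 16944 genes, asked which genes differed among the 3 libraries by more than counting error. This test compares libraries and not conditions, and it counts ordinary variation between cultures as a difference. Of the 35 members with at least 10 counts, 21 passed (60.0%), beside 47.2% of all genes tested, and the share depends on how many counts a gene has. Without replicate 1, 2 of 33 passed, beside 8.11% of all genes. These were *Irf7* (adjusted p = 0.043) and *Nlrc5* (adjusted p = 0.0162), with 3 against 15 and 33 against 10 counts in replicates 2 and 3. The other 19 calls were lost. Leaving out replicate 2 gave 18 of 35 members, beside 42.9% of all genes, and leaving out replicate 3 gave 17 of 33, beside 46.6%. In the test of all libraries, 14 members (40.0%) passed with replicate 1 above both others and 5 (14.3%) with it below both. All genes gave 21.9% and 22.4%. With total counts in place of TMM scaling, the split was 10 against 8. That scaling puts the median log2 ratio of all genes that averaged 100 counts or more at -0.065. The shares of all genes given above hold for TMM scaling only.

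All 8 antigen presentation members that averaged 100 counts or more had a log2 ratio of replicate 1 to the other libraries' mean above 0. Their median was 0.30, and all 8 were above 0 also with DESeq2's size factors and with total counts. In the chi-square test 7 of them passed with replicate 1 above both others, beside 21.9% of all genes tested. The ratio was highest for *H2-K1*, at 0.58, followed by *B2m* at 0.51 (adjusted p = 1.46e-29 and 3.86e-25, chi-square test). *Psmb9*, *Tap2*, *Tapbp*, and *Psmb8* lay between 0.26 and 0.32, and *Tap1*, at 0.12, did not pass (adjusted p = 0.413, chi-square test). With total counts, *H2-D1*, *Tap2*, and *Psmb8* did not pass either. Of the 15 other genes of the class I pathway, 7 passed with replicate 1 above both others and 2 with it below both. Over all genes tested these shares were 21.9% and 22.4%. *Rfx5*, a factor for promoters of class I and class II genes, was at -0.73. The constitutive subunits *Psmb5*, *Psmb6*, and *Psmb7* were at 0.39, 0.39, and 0.31, beside 0.26 and 0.32 for *Psmb8* and *Psmb9*.

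Gene length moved with these ratios. Of the members that passed the chi-square test and averaged 100 counts or more, the 12 with replicate 1 above both others were 655 to 3976 bases long. The 4 with replicate 1 below both, *Ifnar1*, *Tyk2*, *Ddx58*, and *Adar*, were 5940 to 8118 bases long. Among members that passed with fewer counts, *Irf9* and *Ifit2* went against this split. *Irf9*, 5386 bases long, had replicate 1 above both others, and *Ifit2*, 3927 bases long, had it below both. For *Bst2* the ratio was 0.48, where the median of genes of its length was 0.39, and for *Ifitm2* it was 0.31 against the same 0.39. Once the trends on length and on GC content were taken out, *B2m* moved from 0.51 to 0.016 and *H2-D1* from 0.11 to -0.022. *H2-K1* was still at 0.50, above 97.7% of the 10577 genes that averaged 100 counts or more. *Irf1*, at 0.39, was above 94.5% of them, and *Psmb9*, *Tap1*, *Tapbp*, and *Tap2*, at 0.29 to 0.31, above 88.5% to 89.9%. *Tap1* had been at 0.12 before the trends were taken out, and it had not passed the chi-square test. After this step 7 of the 8 antigen presentation members were above 0 and their median was 0.29. Of all 24 members 13 were above 0, and of all genes 49.9%. The length trend used the same gene length as FPKM, which can exceed the longest coding transcript. The 2 lengths were 3660 and 1352 bases for *Psmb9*, 5476 and 2953 for *Tap1*, and 2938 and 1619 for *H2-K1*. For *B2m* both were 860 bases. A trend on transcript length was not fitted, so how far these values depend on the length used was not tested. Apart from *B2m*, the 8 antigen presentation members lie near each other on chromosome 17, from *Tapbp* (start 33915899) to *H2-D1* (end 35267499). Their count therefore does not stand for 8 separate loci. The medians of the other steps were -0.012 for 8 receptor and signalling members, -0.25 for 2 sensors, and -0.075 for 6 effectors, and the differences between steps were not tested. *Isg15* and *Irf9*, with fewer than 100 counts on average, had ratios of 1.05 and 0.77 before and 0.70 and 0.86 after the trends were taken out (adjusted p = 0.0044 and 0.000271, chi-square test). *Ifit2*, also under 100 counts on average, went the other way, with -0.59 before and -0.65 after (adjusted p = 0.0313, chi-square test). All of these ratios rest on 1 library, and the part of its length trend in them was not tested.

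**Figure D3:**
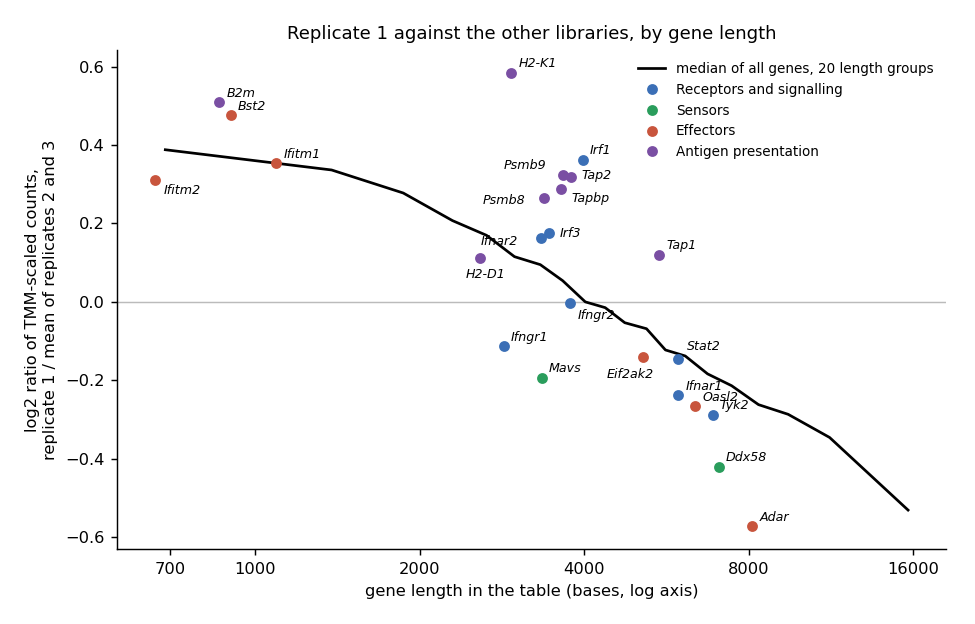
Log2 ratio of TMM-scaled counts in replicate 1 to the mean of replicates 2 and 3 against gene length (log axis) for the 24 members that averaged 100 counts or more, coloured by step. The line joins the medians of 20 length groups over 10577 genes. Both the line and the members fall from short genes (*B2m*, *Bst2*) to long ones, with *H2-K1*, *Irf1*, and *Tap1* well above the line and *Ddx58* and *Adar* below it.

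The ISRE letters were searched in the RefSeq windows of 250 bases before to 50 bases after each start site, on both strands. Windows were found for 35 members, and *Mx1*, *Mx2*, *Tap2*, and *Nlrc5* had none. A match was present in 13 of the 35 (37.1%), against 3.99% of 27025 genes, which describes a list named for its interferon response. Effectors held 8 of the 13. A match was held by 8 of the 24 members that reached 1 FPKM in each library and by 5 of the 11 others, a difference that was not tested. The 10 letters GAAACTGAAA, or TTTCAGTTTC on the other strand, were found in the promoters of 6 members and in 0.263% of all genes. Their mean levels were 175 FPKM for *Bst2*, 82.5 FPKM for *B2m*, 5.60 FPKM for *Stat2*, 1.21 FPKM for *Oas1a*, 0.0342 FPKM for *Ifit1*, and 0.0204 FPKM for *Ifit3*. Likewise, GAAAAGGAAA was shared by *Ifitm2* at 191 FPKM and *Isg15* at 2.37 FPKM, as seen in the sequences shown above. *Isg15* held 3 overlapping matches, at positions -78, -72, and -66 from the start site. Letters of the gamma-activated sequence, TTCNNNGAA, were present in 10 of 35 members and 9.55% of all genes, among them *Irf1* at position -90. A match is a stretch of letters and not a measured binding site. Only these exact letters were counted, so a promoter without a match can still hold a variant of the motif.

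The CpG content of the promoters was also compared with the levels. The ratio of observed to expected CpG in the window, taking the highest where a gene has several, had a median of 0.644 in the 24 members that reached 1 FPKM in each library and of 0.392 in the 11 others, against 0.415 over all genes. A ratio of 0.6 or more was found in 14 of the 24 and in 2 of the 11, *Irf2* and *Ifih1*, beside 38.4% of all genes. At the high end of the levels, *Ifitm2*, *Ifitm1*, *Bst2*, and *H2-K1* were under 0.6, with 0.216, 0.257, 0.516, and 0.588. *B2m* and *H2-D1* were above it, with 0.682 and 0.653. The ranges of 0.188 to 1.02 and 0.0564 to 0.819 overlapped widely, and no test was made.

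**Figure D4:**
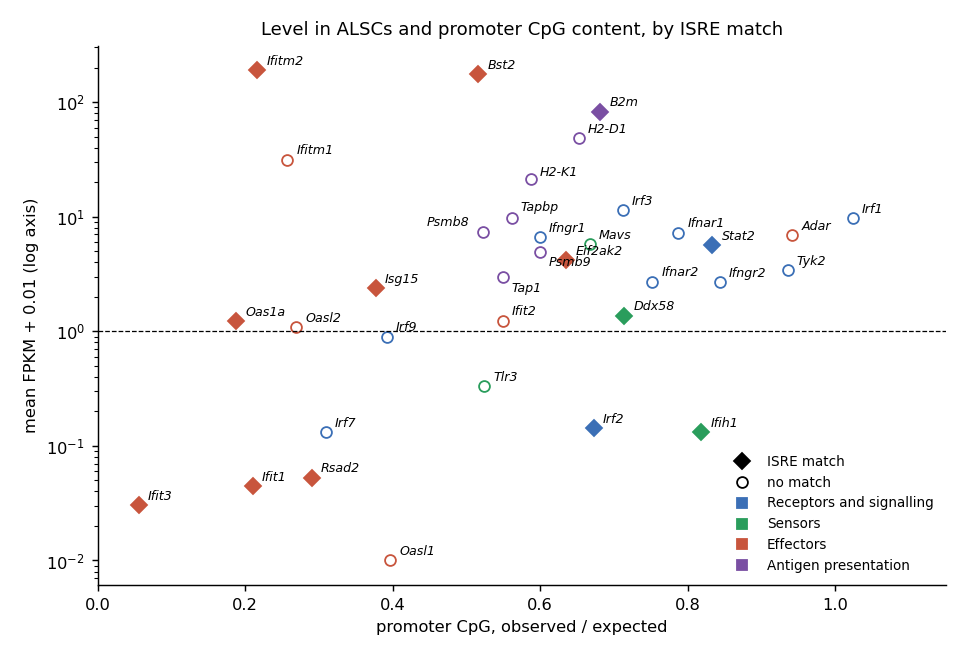
Mean FPKM with 0.01 added (log axis) against the observed to expected CpG ratio of the RefSeq promoter window for 35 members, coloured by step. Filled diamonds hold an ISRE match and open circles do not, and the dashed line marks 1 FPKM. Diamonds lie at the top of the plot (*Ifitm2*, *Bst2*, *B2m*) and at its bottom (*Ifit3*, *Ifit1*, *Rsad2*).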

How the data were processed

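RNA-seq of 3 ALSC libraries was analysed. Per the study's methods, paired-end reads were mapped to GRCm38, and the submitters' processing notes name HISAT2 2.0.5. The counting program and its handling of strand and of multiply mapped reads are not given in the sources used here. The authors deposited raw counts per gene with gene lengths. The ALSC columns carry other names than the sample titles and were matched by replicate number and by the initials of the Act A and LIF medium. The table's 3 other columns of counts match no sample of this series and were not used here. The 317 rows without a gene name, 0.165% to 0.182% of the counts, were left out.

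FPKM was computed from these counts, the table's gene length, and the total count on named genes. For 38 of 39 members this length equals the union of GENCODE M21 exons, retained introns included. A level counted as not detected at 3 counts or fewer, a limit that covers counting error only, as the reads carry no molecular identifiers and need not be separate molecules. Counts were scaled with TMM (edgeR 4.0.16, R 4.3.3) and compared by chi-square (expected counts in proportion to the TMM sizes) over genes with at least 10 counts, Benjamini-Hochberg adjusted at a threshold of 0.05. The procedure was tested on simulated data that held counting error and planted changes but no variation between cultures. The trends of replicate 1 were group medians (20 groups by length, then by GC content, of genes averaging 100 counts or more) and were subtracted in that order. Word uniqueness is the share of 50-base words of a gene's longest coding transcript that occur in no other M21 gene. DESeq2 1.42.0 gave other size factors, and matplotlib 3.10.9, pandas 2.3.3, SciPy 1.17.1, and NumPy 2.4.6 were run in Python 3.11.15. Alternatives covered library size, TPM, thresholds, filters, the pseudocount, and leaving out each replicate. The transcript length and the GC trend were added after seeing the data.

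All 39 members are accounted for, and wider lists are given by counts, their highest levels, and genes a result turns on. The members and lists were chosen with earlier results of these data known. 1 gene of the wider lists is not reported here.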

Additional observations from a re-analysis of the deposited data

How the results depend on the processing

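No paired analysis was possible because all samples share 1 condition. The number of members that reached 1 FPKM in each library was 22 to 28 under the alternatives run, against 25, and that of members at 3 counts or fewer was 4 to 5, against 4, or 6 with a limit of 10 counts. Leaving out a replicate gave 2 to 18 members, against 21, and 1303 to 7465 genes, against 8006, whose counts varied. Both low values came without replicate 1. With total counts, 20 members varied, 17 of them among the 21, and *Irf3*, *H2-D1*, *Tap2*, and *Psmb8* were lost. With the length of the longest coding transcript, the log2 ratios were -3.41 for *Psmb8* to *Psmb5*, -5.43 for *Psmb9* to *Psmb6*, and -1.96 for *Psmb10* to *Psmb7*, *Tap1* was 1.46 times *Tap2*, *B2m* 2.15 times *H2-K1*, and *Irf1* 46.4 times *Irf2* (73.9 by gene length), and the levels of 21 of 39 members moved by over 1 SD, which is the change of length itself. The ratio of replicate 1 changed sign for *Ifitm2* (-0.076 without the length trend, -0.036 without both trends) and for *H2-D1* (-0.058 and -0.022). The filter of 10 counts left 4 members untested, of which 2 had no counts, and without it 37 members were tested and 20 passed, all of them among the 21.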

Other observations

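Genes of class II presentation, which serve professional antigen-presenting cells, were mostly low. Of 6 such genes, 2 reached 1 FPKM in each library. *H2-Ab1*, the beta chain of a class II molecule, was at 5.04, 4.82, and 4.02 FPKM in replicates 1, 2, and 3, while its alpha chain *H2-Aa* had 7, 2, and 2 counts. *H2-DMa*, a chain of the peptide exchange factor, was at 1.94 ± 0.0894 FPKM (SD, n = 3). The invariant chain *Cd74* had 11, 11, and 8 counts, and *Ciita*, the class II transactivator, 6, 3, and 0. Between the libraries, *H2-Ab1* and *H2-Eb1* came nearest to the threshold of the 5 genes tested, with an adjusted p of 0.0526 each (chi-square test).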
